A study of Mus musculus with 9 samples.

Results

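Endothelial cell genes were examined in the whole aorta of mice that carried a floxed allele of AT1ar (Agtr1a), which encodes the type 1a receptor of angiotensin II. The group held 36 genes known from endothelium, chosen by name and matched to the Ensembl identifiers of the authors' table through their symbols. All 36 were found among the 37668 genes listed. Listed values were above 0 for every member in all 3 groups, and 35 members reached 1 FPKM (fragments per kilobase of transcript, scaled to the fragments mapped) in at least 1 group. Aplnr did not, and Robo4 did so in Cdh5Cre alone.

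RNA was sequenced from the aortas of 9 male mice aged 90 days on a 129T2SvEmsJ:C57Blk/6J background, 3 per group. The Cdh5Cre group carried the floxed AT1ar allele with the Cdh5-Cre transgene, driven by the promoter of the endothelial cadherin gene. The Sm22Cre group carried it with Sm22-Cre, driven by that of Tagln, a gene of smooth muscle. The floxed group carried the same allele and no Cre, so presence of a Cre transgene and loss of the receptor cannot be told apart. The series title names Marfan syndrome, and the sample labels name no Marfan allele. Every FPKM below is the authors' single value for a group of 3 libraries. No spread between mice was given, so no difference could be tested against replicate error and the depth is unknown.

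Endothelium lines the inner face of the aorta and the small vessels of its outer coat. Its cells are held together by VE-cadherin and claudin-5, respond to vascular endothelial growth factor and angiopoietins through receptor tyrosine kinases, and are kept in their identity by ETS, SOX and GATA transcription factors. They also make clotting regulators and the adhesion molecules that leukocytes bind. In RNA from a whole vessel, fewer cells of a type and less RNA per cell cannot be told apart.

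Agtr1a, the floxed gene, stood at 1.32 FPKM in Cdh5Cre, 1.21 in Sm22Cre and 1.75 in floxed. The value covers the whole transcript in all cells of the wall. FPKM summed to 607867 in Cdh5Cre, 500015 in Sm22Cre and 495724 in floxed, and the 36 endothelial genes made up 0.197%, 0.176% and 0.158% of those sums in the same order. Smooth muscle markers were abundant in every group, with Myh11, the smooth muscle myosin heavy chain, at 1142 FPKM in Cdh5Cre, 1267 in Sm22Cre and 1341 in floxed.

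Promoter sequences are shown for members that were 2-fold or more higher in Cdh5Cre than in floxed, because those genes were higher together. The windows are the 250 bases before the transcript start on GRCm38.p6, from RefSeq, all on the plus strand. Capitals mark CAGGAAG on either strand, a sequence that ETS factors such as ERG can bind. Cldn5 lies at chr16:18776597-18776846, Emcn at chr3:137340828-137341077 and Egfl7 at chr2:26580833-26581082, and Egfl7 was added after its value was seen. Sox18, Plvap and Ecscr are not shown.
Cldn5: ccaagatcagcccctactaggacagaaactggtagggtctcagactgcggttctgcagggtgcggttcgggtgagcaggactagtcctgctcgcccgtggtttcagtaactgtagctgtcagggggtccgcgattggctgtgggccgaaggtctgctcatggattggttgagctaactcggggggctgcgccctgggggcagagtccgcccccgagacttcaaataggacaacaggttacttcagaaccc
Emcn: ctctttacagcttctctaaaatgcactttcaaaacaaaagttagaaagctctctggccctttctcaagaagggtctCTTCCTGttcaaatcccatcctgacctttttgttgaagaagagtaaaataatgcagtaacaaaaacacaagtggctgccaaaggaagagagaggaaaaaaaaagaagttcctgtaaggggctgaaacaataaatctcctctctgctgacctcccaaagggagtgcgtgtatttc
Egfl7: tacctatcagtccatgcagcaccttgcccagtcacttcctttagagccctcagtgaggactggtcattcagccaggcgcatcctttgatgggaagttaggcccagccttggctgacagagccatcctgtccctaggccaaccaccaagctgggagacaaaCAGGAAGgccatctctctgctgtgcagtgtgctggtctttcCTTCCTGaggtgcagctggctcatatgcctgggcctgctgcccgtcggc
Emcn held the motif 1 time, 174 bases before the start on the minus strand. Egfl7 held it 90 bases before the start on the plus strand and 49 bases before it on the minus strand. The Cldn5 window held none, and it was richer in G and C (59.6%) than the Emcn window (40.8%). Of the 36 members, 16 were in the RefSeq table, with 21 windows. CAGGAAG was present in 7 of the 21 (33.3%), against 10.8% of all 32851 windows, and the genes were Egfl7, Emcn, Erg, Rasip1, Robo4 and Stab1. The other ETS sequence searched on both strands, CCGGAAG, was in 0 of the 21 and in 6.91% of all windows. At least 1 of these ETS sequences was in 7 of the 21 windows (33.3%), against 17.0% of all windows. The 7 windows came from 6 of the 16 genes, so windows of the same gene were counted separately. The SOX sequences ACAAAG and ACAATG were in 4 of the 21 windows (19.0%) against 25.2% of all windows, and the GATA sequence AGATAA in 1 (4.76%) against 9.99%. A match is a run of letters and not a measured binding site.

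Levels of the 36 genes spanned more than 2 orders of magnitude on the FPKM scale, which is per transcript length. In floxed aorta they lay between 0.611 FPKM for Aplnr, the apelin receptor, and 136 for Pecam1, which encodes the adhesion molecule PECAM-1 at endothelial contacts. The median was 19.5 FPKM in Cdh5Cre, 15.0 in Sm22Cre and 12.9 in floxed. At least 10 FPKM was reached by 26 members in Cdh5Cre, 24 in Sm22Cre and 21 in floxed. Next to Pecam1 in floxed came Eng, an endothelial co-receptor for TGF-beta family ligands, at 73.3 FPKM, and Vwf, the von Willebrand factor gene, at 62.2. The receptors of vascular endothelial growth factor were far lower, with Flt4 at 2.1 FPKM, Kdr at 3.29 and Flt1 at 7.27. The value was highest in Cdh5Cre for 30 members, in Sm22Cre for Erg, Lyve1, Ptprb and Vcam1, and in floxed for Aplnr and Flt1. The order Cdh5Cre, then Sm22Cre, then floxed was seen in 24 of the 36.

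**Figure D1:**
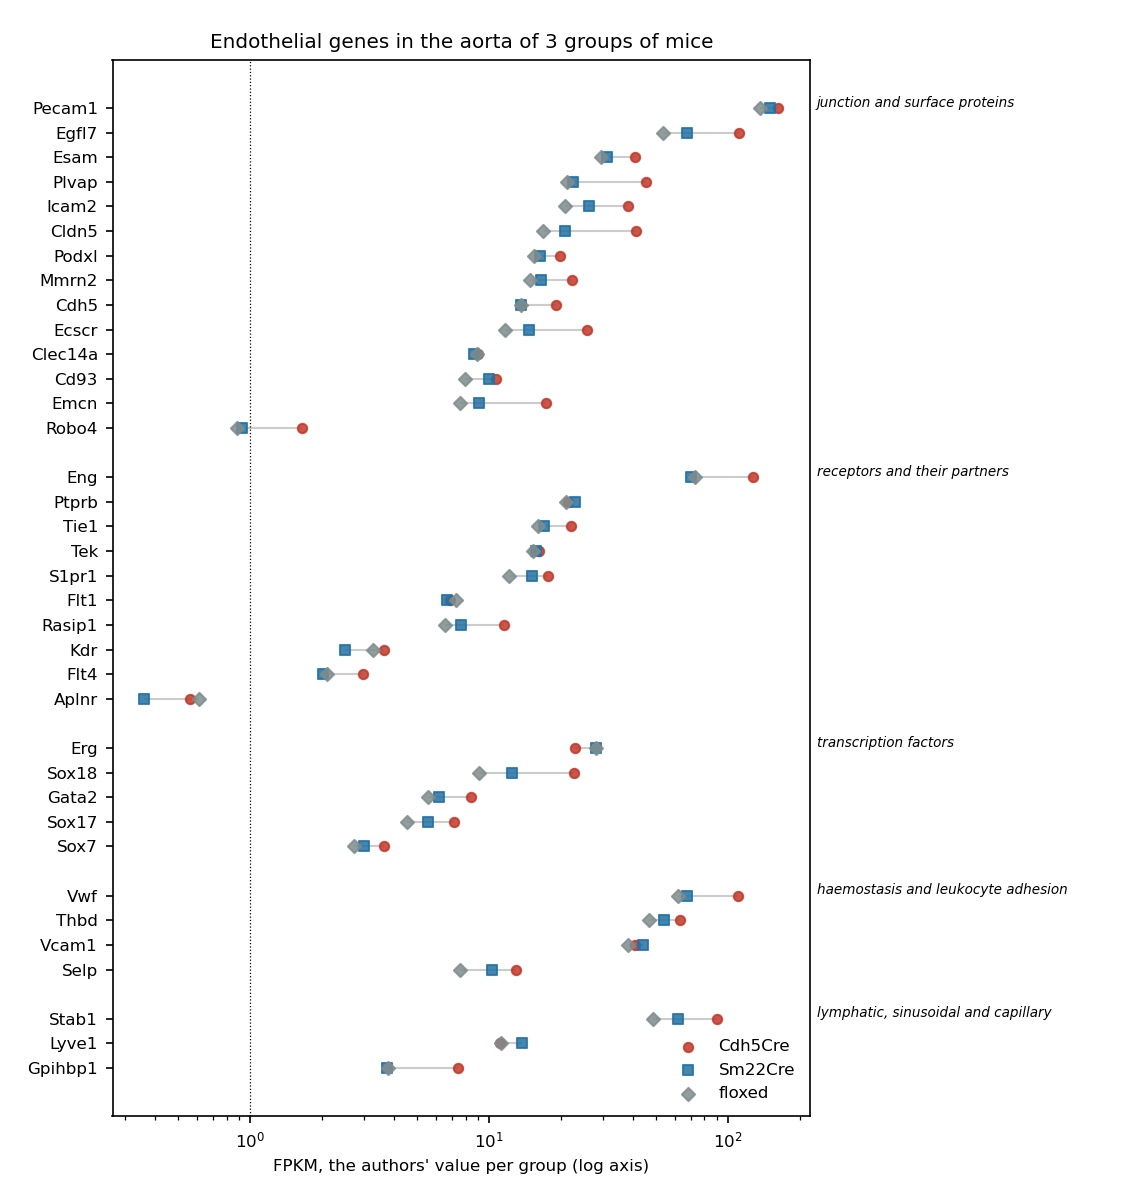
FPKM of each endothelial gene on a log axis, 1 value per group as deposited by the authors, ordered by level in floxed within each role, with a dotted line at 1 FPKM. Cdh5Cre lies to the right of floxed for most genes, for example Cldn5 at 41.3 FPKM in Cdh5Cre against 16.9 in floxed, while Erg and Flt1 do not follow.

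The comparison of Cdh5Cre with floxed concerned loss of the receptor from endothelial cells. Endothelial genes were mostly higher in Cdh5Cre: 32 of the 36 were above their floxed value, against 51.7% of the 14227 genes analysed, and Erg, Flt1, Aplnr and Lyve1 were below it, against 48.2%. Their summed level was 1199 FPKM in Cdh5Cre against 786 in floxed. The median log2 ratio of FPKM + 1 was 0.47 for the 36 genes and 0.02 for all genes. Cldn5, Sox18, Emcn, Ecscr, Plvap and Egfl7 were higher by 2-fold or more on that scale, 6 of 36, where 1.20% of all genes were. None was lower by 2-fold or more, against 0.703% of all genes. Above the ratio of 0.70 that only 5.0% of all genes exceed, there were 13 of the 36 members. A 2-fold rule of size was used in place of a test, and these counts describe the group values.

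Among junction and surface proteins, the largest role, 5 of 14 were higher by 2-fold or more in Cdh5Cre, where 1.20% of all genes were. With the trend on transcript length and GC content removed, described further on, 1 of the 14 was. Role medians were then 0.53 here, 0.37 for receptors and for transcription factors, 0.60 for haemostasis and adhesion and 0.57 for other endothelial beds. Cldn5 encodes claudin-5, the main tight junction protein of endothelium (mm9 chromosome 16, 18776940 to 18778353). It was at 41.3 FPKM in Cdh5Cre, 20.8 in Sm22Cre and 16.9 in floxed, 2.44-fold higher in Cdh5Cre than in floxed. Emcn encodes endomucin, a sialomucin of venous and capillary endothelium (chromosome 3, 137004031 to 137095149). Its value was 17.4 FPKM in Cdh5Cre, 9.09 in Sm22Cre and 7.55 in floxed, a 2.30-fold difference between Cdh5Cre and floxed. For both genes the Sm22Cre value lay nearer to floxed than to Cdh5Cre.

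Plvap, which forms the diaphragms of fenestrated and caveolar endothelium, was at 45.6 FPKM in Cdh5Cre, 22.5 in Sm22Cre and 21.2 in floxed. Egfl7, a secreted protein of endothelial matrix, was at 112 FPKM in Cdh5Cre, 67.7 in Sm22Cre and 53.8 in floxed. Ecscr, a small membrane protein of endothelial cells, was at 25.8, 14.8 and 11.7 FPKM in the same order. These 3 genes share their listed locus with other genes, so fragments may have been divided among neighbours. Egfl7 also had the status FAIL in the authors' table.

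The classical markers differed less. Pecam1 was at 163 FPKM in Cdh5Cre, 151 in Sm22Cre and 136 in floxed, 1.19-fold higher in Cdh5Cre than in floxed. It had the status FAIL and a shared locus. Cdh5, which encodes VE-cadherin and whose promoter drives Cre in the Cdh5Cre group, was at 19.1 FPKM in Cdh5Cre, 13.6 in Sm22Cre and 13.7 in floxed (1.40-fold). Among partners of the same surface, the C-type lectin family genes Cd93 and Clec14a differed from each other although both proteins bind the matrix protein of Mmrn2. Cd93 was at 10.7 FPKM in Cdh5Cre, 10.0 in Sm22Cre and 7.96 in floxed. Clec14a stood at 9.03, 8.65 and 8.93 FPKM in the same order, the smallest difference among the 14 genes of this role. All 14 were higher in Cdh5Cre than in floxed, where 51.7% of all genes were. Mmrn2 was at 22.3 FPKM in Cdh5Cre and 14.9 in floxed. Icam2 was 1.84-fold, Esam 1.38-fold and Podxl 1.29-fold higher in Cdh5Cre than in floxed. Robo4 was at 1.65 FPKM in Cdh5Cre, 0.928 in Sm22Cre and 0.886 in floxed. It had the status FAIL, and at these levels its 1.86-fold difference can hardly be read.

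Receptors and their signalling partners had a median log2 ratio of 0.24 in Cdh5Cre against floxed, with 8 of 10 higher and none at 2-fold. Of all genes 51.7% were higher, 1.20% by 2-fold or more. With the length and GC trend removed 10 of 10 were higher, with a median of 0.37, where that of 12317 genes was -0.01. The receptors of vascular endothelial growth factor were low throughout. Kdr, the main signalling receptor, was at 3.63 FPKM in Cdh5Cre, 2.49 in Sm22Cre and 3.29 in floxed. Flt1, which binds the same ligand and limits its signal, was at 6.87, 6.68 and 7.27 FPKM in the same order and was among the 4 members lower in Cdh5Cre than in floxed. Flt4, the receptor of lymphatic endothelium, was at 2.97, 2.02 and 2.1 FPKM. The level of Flt1 was 1.89 times that of Kdr in Cdh5Cre, 2.68 times in Sm22Cre and 2.21 times in floxed.

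The angiopoietin receptor Tek was nearly level across groups, at 16.3 FPKM in Cdh5Cre, 15.8 in Sm22Cre and 15.3 in floxed, while its partner Tie1 was at 22.0, 17.0 and 16.0. Ptprb, the phosphatase VE-PTP that acts on Tek and VE-cadherin, was at 21.4 FPKM in Cdh5Cre, 22.9 in Sm22Cre and 21.1 in floxed. Tek and Tie1 were thus about equal in floxed (ratio 0.958) and less so in Cdh5Cre (0.744). With the trend on transcript length and GC content removed, described further on, their log2 ratios in Cdh5Cre against floxed were 0.30 for Tek and 0.35 for Tie1. Eng, with the highest log2 ratio of FPKM + 1 in this role (0.79), was at 128 FPKM in Cdh5Cre, 70.3 in Sm22Cre and 73.3 in floxed, and it had the status FAIL and a shared locus. Rasip1, an effector of Ras family GTPases needed for vessel lumens, was 1.78-fold higher in Cdh5Cre than in floxed, and S1pr1, the sphingosine 1-phosphate receptor, 1.45-fold. Aplnr was at 0.559 FPKM in Cdh5Cre, 0.361 in Sm22Cre and 0.611 in floxed, too low for its differences to be read.

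Transcription factors differed in direction. Sox18 (chromosome 2, 181404541 to 181406345) was at 22.8 FPKM in Cdh5Cre, 12.5 in Sm22Cre and 9.08 in floxed, 2.51-fold higher in Cdh5Cre than in floxed and the highest fold of all members. Its SOX-F relatives, which act in vessel and lymphatic development, differed less: Sox17 was at 7.16 FPKM in Cdh5Cre, 5.56 in Sm22Cre and 4.56 in floxed, and Sox7 at 3.66, 3.00 and 2.74. Sox18 was 3.18 times Sox17 in Cdh5Cre, 2.25 times in Sm22Cre and 1.99 times in floxed. Gata2 was 1.51-fold higher in Cdh5Cre than in floxed. Erg, an ETS factor that maintains endothelial identity, had the lowest log2 ratio of the 36 genes (-0.28), at 22.9 FPKM in Cdh5Cre, 28.2 in Sm22Cre and 28.0 in floxed, with the status FAIL. In floxed aorta Erg was the most abundant of the 5 factors, and in Cdh5Cre Erg and Sox18 were level.

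Genes of haemostasis and leukocyte adhesion were all above floxed in Cdh5Cre, where 51.7% of all genes were. Their median log2 ratio was 0.57 over 4 genes. Vwf, which tethers platelets to a damaged wall, was at 111 FPKM in Cdh5Cre, 67.7 in Sm22Cre and 62.2 in floxed. Selp, the P-selectin gene, was at 13, 10.3 and 7.60 FPKM in the same order. Thbd, the thrombomodulin gene, was at 63.4, 54.4 and 46.7 FPKM. Vcam1, a leukocyte adhesion molecule that smooth muscle can also make, differed least, at 40.8 FPKM in Cdh5Cre, 44.4 in Sm22Cre and 38.2 in floxed.

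Genes of other endothelial beds were less uniform. Lyve1, a hyaluronan receptor of lymphatic vessels and of some macrophages, was at 11.1 FPKM in Cdh5Cre, 13.8 in Sm22Cre and 11.3 in floxed. Stab1, a scavenger receptor of sinusoidal endothelium and macrophages, was at 90.3, 62.1 and 48.6 FPKM in the same order. Gpihbp1, which carries lipoprotein lipase to the surface of capillaries, was at 7.42, 3.75 and 3.77 FPKM. Cdh5Cre thus stood above floxed for Stab1 and Gpihbp1, and did not for Lyve1.

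**Figure D2:**
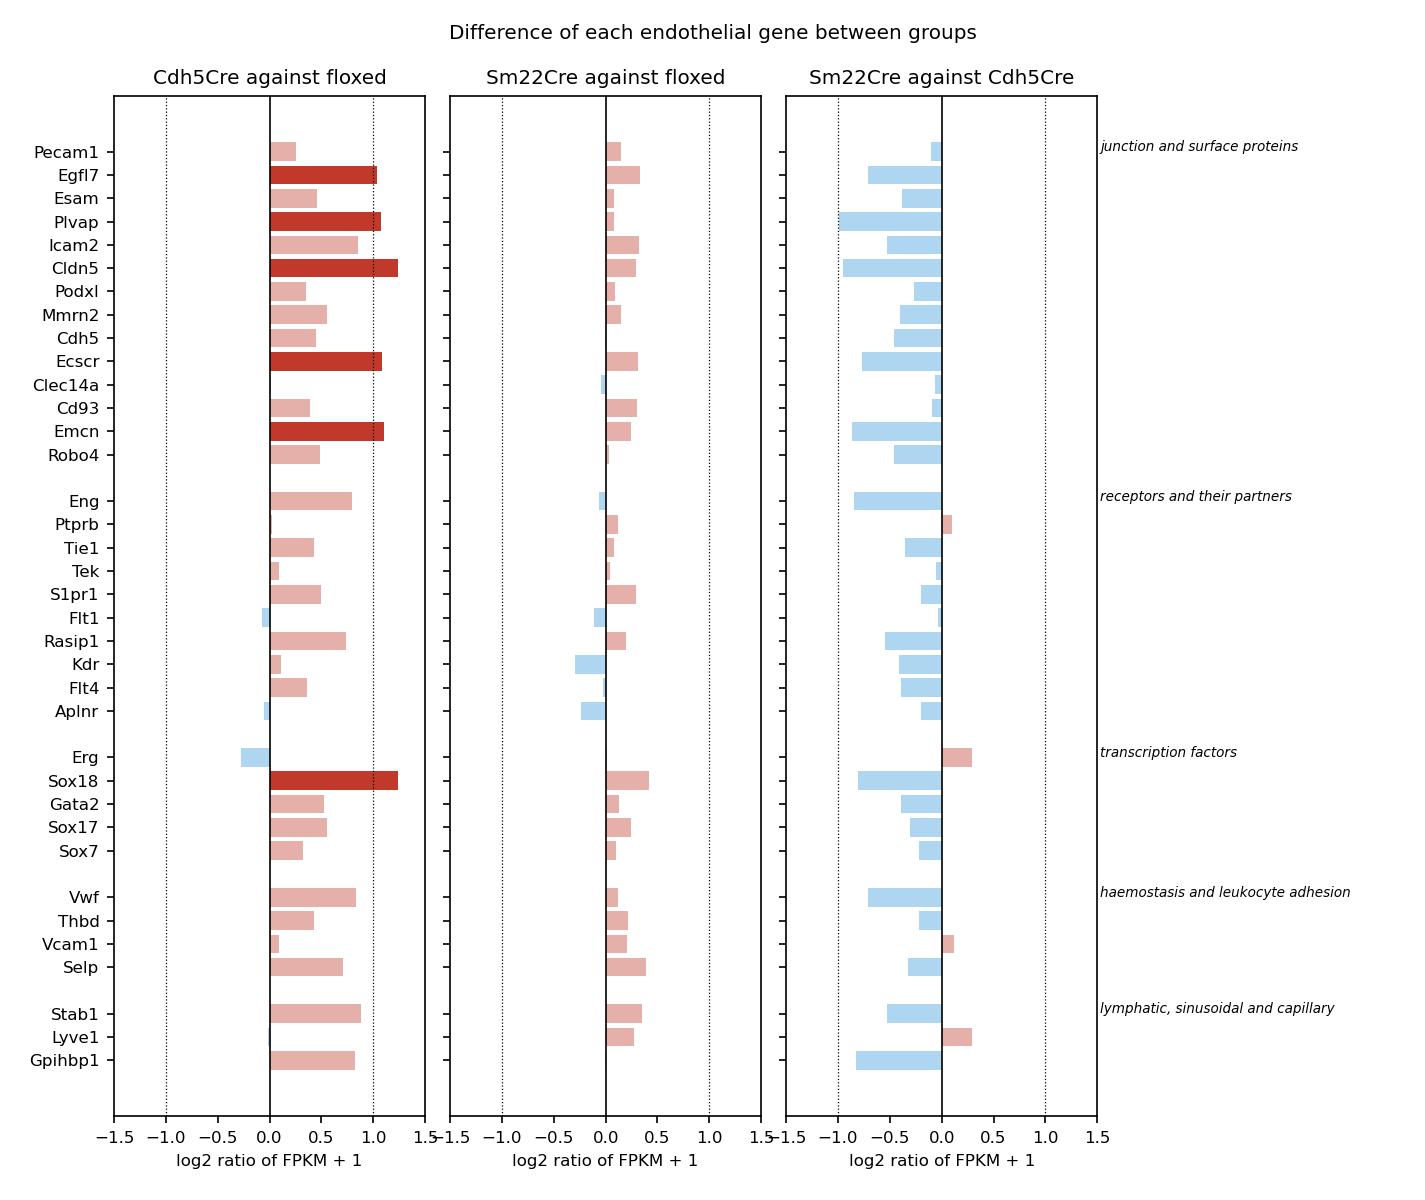
Log2 ratio of FPKM + 1 for each endothelial gene in the 3 comparisons, with dark red bars at 2-fold or more higher, pale red bars higher, blue bars lower and dotted lines at 2-fold. In Cdh5Cre against floxed 6 genes reach 2-fold, in the other comparisons none does, and the bars of Sm22Cre against floxed lie between -0.30 and 0.42.

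The ratios of Cdh5Cre to floxed depended on transcript length and GC content across all genes, and the endothelial genes shared in this. Across 12317 genes with a protein-coding transcript, Spearman's rho of the ratio was -0.58 with length and 0.53 with GC content, and genes of the same libraries are no independent replicates. Over the 36 members rho was -0.53 and 0.62, as a description of genes from the same libraries. All 6 members with a 2-fold difference were among the 18 with the shorter transcripts, whose median log2 ratio was 0.77, against 0.37 for the 18 with the longer. The median was also 0.77 for the 18 of higher GC content, against 0.18 for the 18 of lower. Emcn (41.5%) and Ecscr (50.9%) reached 2-fold with a GC content below the member median of 52.1%. Stab1 and Vwf stood high although their transcripts are 7999 and 8834 bases long.

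With the trend on length and GC content removed over all genes, 35 of the 36 members were higher in Cdh5Cre than in floxed. Their median log2 ratio was 0.48, against -0.01 for 12317 genes. The highest of the members was then 1.27 for Emcn and the lowest -0.26 for Erg. Only Emcn still reached 2-fold, 1 of 36, where 0.495% of 12317 genes did. Cldn5 had 0.80, Sox18 0.83, Ecscr 0.76, Plvap 0.72 and Egfl7 0.64. Members with long transcripts that had stood near 0 were higher on this scale, with Ptprb at 0.47, Kdr at 0.33 and Tek at 0.30, and Vwf and Stab1 at 0.94 and 0.95 came next after Emcn. Scaling each group to the same FPKM sum left 0 members at 2-fold, where 0.604% of all genes were, and 26 of the 36 higher at any size. That scaling lowered the median of all genes to -0.23 and that of the members to 0.20. The share of all genes higher at any size was computed neither with the trend removed nor under that scaling. The members' median exceeded that of all genes by 0.40 to 0.50 under the 13 other settings tried. All settings reused the same group values. Centring and sum scaling shift members and all genes nearly alike, so they could hardly change this distance.

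**Figure D3:**
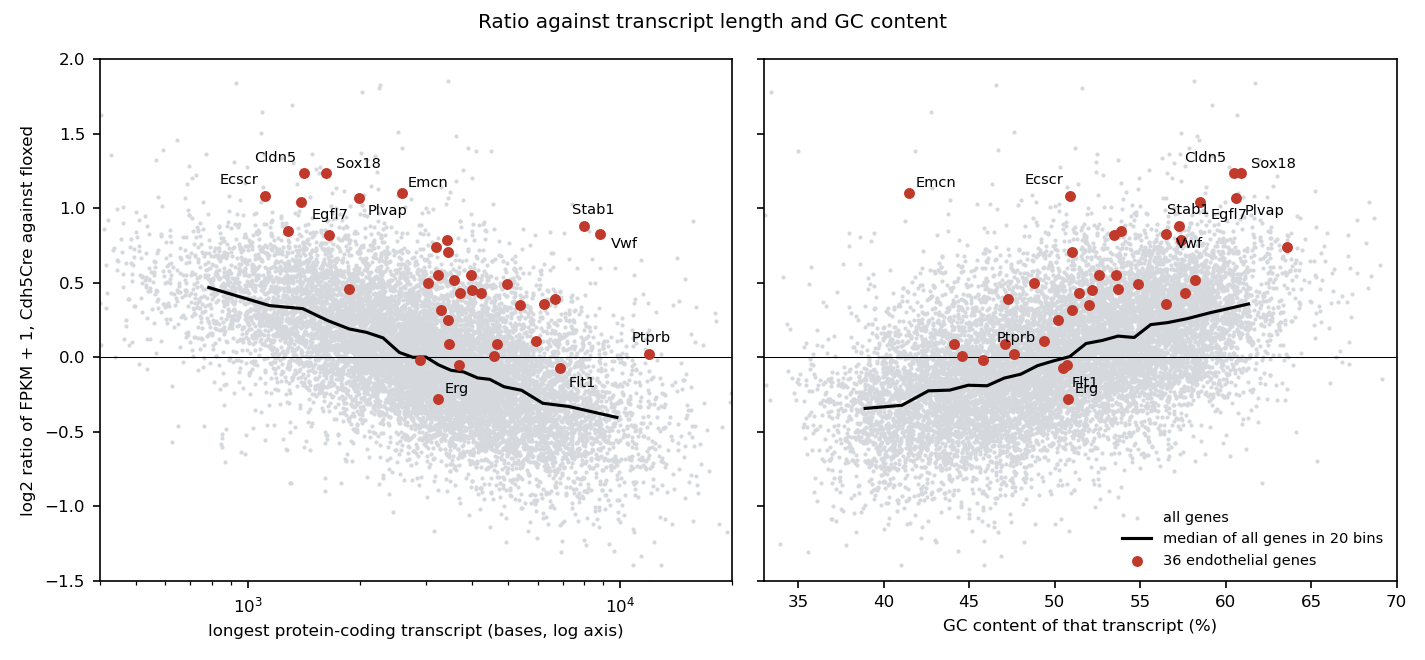
Log2 ratio of FPKM + 1 in Cdh5Cre against floxed, over transcript length on a log axis and GC content, for 12317 genes (grey), their median in 20 bins (black line) and the 36 endothelial genes (red), with 19 genes beyond the vertical axis. Most red points lie above the line, Erg lies farthest below it, and the highest points at short lengths are Cldn5, Sox18, Ecscr and Egfl7.

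**Figure D4:**
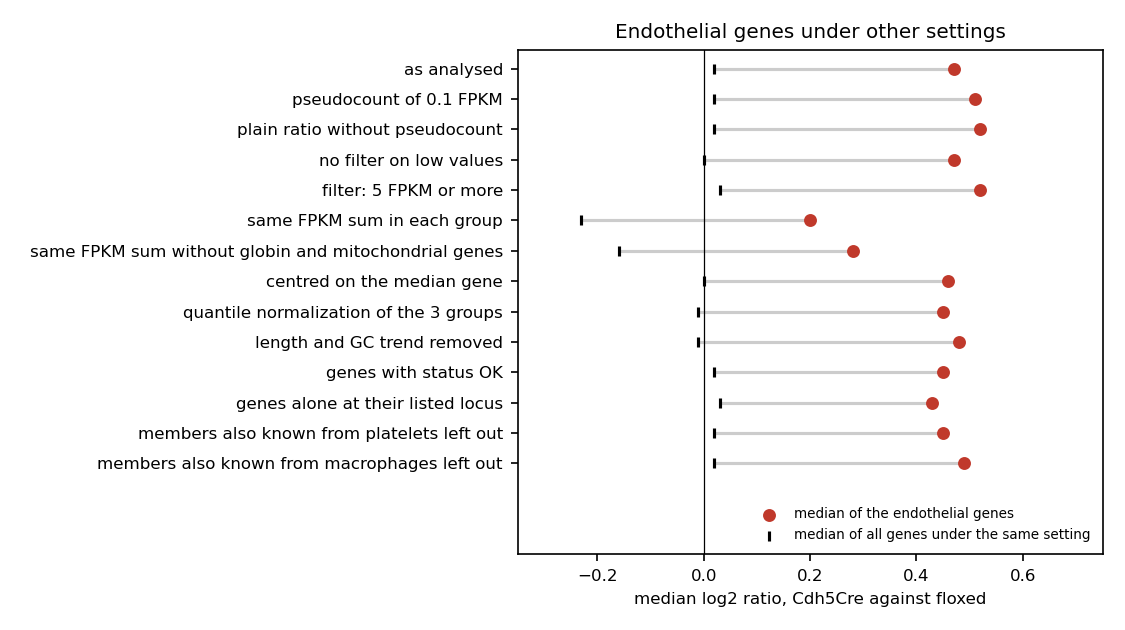
Median log2 ratio of Cdh5Cre to floxed for the endothelial genes (red) and for all genes (black bar) as analysed and under 13 other settings. Scaling to the same FPKM sum moves both to the left, to 0.20 and -0.23, and the distance between them stays between 0.40 and 0.50.

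Sm22Cre and floxed, which were compared for loss of the receptor from smooth muscle, differed far less in endothelial genes. Of the 36, 28 were higher in Sm22Cre and 8 lower, where 52.0% of all genes were higher and 47.9% lower, and the median log2 ratio was 0.12 against 0.01 for all genes. No member reached 2-fold in either direction, where 0.302% of all genes were higher and 0.330% lower by that size. The ratios of all genes were also narrow here: 5.0% exceeded 0.24, and 10 members did. Sox18 had the highest ratio of the members (0.42, 1.38-fold), followed by Selp (0.39), Stab1 (0.35), Egfl7 (0.33), Icam2 (0.32) and Ecscr (0.31). Cdh5 and Gpihbp1 were level with floxed at 0.994-fold each.

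Of the 10 receptors and partners, 5 were higher and 5 lower in Sm22Cre than in floxed, where 52.0% of all genes were higher and 47.9% lower. With the length and GC trend removed 6 of the 10 were higher, where the median of 12317 genes was 0.00. Kdr was among the 5 lower (-0.30), at 2.49 FPKM in Sm22Cre against 3.29 in floxed. Aplnr, another of them, was under 1 FPKM in every group. The 5 transcription factors and the 4 genes of haemostasis and adhesion were each higher in Sm22Cre, with medians of 0.13 and 0.21. Here the members' ratios followed length (rho -0.41) and hardly GC content (rho 0.12), and the median with the trend removed was 0.16.

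Set directly against Cdh5Cre, Sm22Cre had lower values for 32 of the 36 endothelial genes, against 50.7% of all genes, with a median log2 ratio of -0.38 against -0.01. No member was lower by 2-fold or more on this scale, where 1.24% of all genes were, and none was higher by that size, where 0.401% were. Plvap (-0.99), Cldn5 (-0.95), Emcn (-0.86), Eng (-0.85), Gpihbp1 (-0.83) and Sox18 (-0.81) had the lowest ratios. Plvap fell just short of 2-fold on that scale, at 22.5 FPKM in Sm22Cre against 45.6 in Cdh5Cre. Erg (0.29), Lyve1 (0.29), Vcam1 (0.12) and Ptprb (0.10) were higher in Sm22Cre, 4 of 36 against 49.1% of all genes. With the trend removed, Emcn was lower by 2-fold (-1.06), 1 of 36 against 0.650% of 12317 genes. This comparison reuses the group values of the earlier ones and is no separate evidence for them.

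Endothelial genes outside the 36 were taken from lists of 51 further genes, of which 50 were measured. In Cdh5Cre against floxed 41 of the 50 were higher, with a median log2 ratio of 0.28, where 51.7% of all genes were (median 0.02). In Sm22Cre against floxed 32 of the 50 were higher, with a median of 0.04, where 52.0% of all genes were (median 0.01). By 2-fold or more 1 of the 50 was higher in Cdh5Cre than in floxed, where 1.20% of all genes were. Gja4, the arterial gap junction gene for connexin 37, reached 2-fold in Cdh5Cre, at 29.8 FPKM in Cdh5Cre, 15.6 in Sm22Cre and 13.4 in floxed, and its log2 ratio was 0.75, under 2-fold, with the length and GC trend removed. Nos3, the endothelial nitric oxide synthase gene, was at 20.1, 14.7 and 12.3 FPKM in the same order. The flow-responsive gene Klf2 was at 69.5 FPKM in Cdh5Cre, 31.7 in Sm22Cre and 37.4 in floxed, and it was the member of these lists that was lower by 2-fold in Sm22Cre against Cdh5Cre (-1.11, and -0.72 with the trend removed).

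By type, 21 of 24 general endothelial genes were higher in Cdh5Cre than in floxed (median 0.29), as were 7 of 8 arterial genes (0.40). So were 6 of 8 venous and activation genes (0.04), 2 of 4 lymphatic genes (0.19), 3 of 4 capillary genes (0.18) and both flow-responsive genes (0.65). Of all genes 51.7% were higher. Removal of the length and GC trend changed the order of the types, with medians of 0.32, 0.47, 0.10, 0.39, 0.01 and 0.41. On that scale 4 of 4 lymphatic and 2 of 4 capillary genes were higher, where the median of 12317 genes was -0.01. In Sm22Cre against floxed the medians were 0.07, 0.11, -0.09, -0.20, 0.03 and -0.10 in the same order. Calcrl and its partner Ramp2 together form adrenomedullin receptors, and they went apart. Calcrl was at 17.0 FPKM in Cdh5Cre, 30.0 in Sm22Cre and 28.5 in floxed, whereas Ramp2 was at 152, 89.9 and 87.9. With the length and GC trend removed their log2 ratios in Cdh5Cre against floxed were -0.24 and 0.30. Both had the status FAIL in all 3 pairs of groups, and Ramp2 shared its listed locus. Angpt2, the angiopoietin that antagonizes Tek, was at 20.9 FPKM in Cdh5Cre, 33.3 in Sm22Cre and 33.7 in floxed, and it shared its listed locus. Endothelial genes were therefore not all higher in Cdh5Cre.

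Markers of blood cells moved in the same order of groups as most endothelial genes. The 11 platelet markers summed to 275 FPKM in Cdh5Cre, 90.5 in Sm22Cre and 46.9 in floxed. All 11 were higher in Cdh5Cre than in floxed, 8 of them by 2-fold, and 10 were higher in Sm22Cre than in floxed. Of all genes 51.7% were higher in Cdh5Cre, 1.20% by 2-fold or more, and 52.0% were higher in Sm22Cre. Pf4 and Ppbp, chemokines of platelet granules, were the most abundant in floxed. The 7 erythroid markers summed to 25454, 9029 and 4020 FPKM in the same order, and all 7 were higher in both Cre groups, the globins Hba-a1 and Hbb-bs being the most abundant. Platelets are known to carry Pecam1, Vwf, Selp, Icam2 and Esam. Without these 5, 27 of the other 31 members were higher in Cdh5Cre than in floxed, with a median of 0.45, and 23 of 31 were higher in Sm22Cre than in floxed, with a median of 0.12. No marker of these lists was at 0 in any group, and the part of blood in the differences was not tested.

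Lists of other cell types are given with their most abundant genes in floxed. Of all genes 51.7% were higher in Cdh5Cre than in floxed, 1.20% by 2-fold or more, and 47.9% were lower in Sm22Cre than in floxed. Of 12 macrophage markers (Lyz2, C1qa) 6 were higher and 6 lower in Cdh5Cre than in floxed (median 0.05). Their sums were 405 FPKM in Cdh5Cre, 397 in Sm22Cre and 367 in floxed. Once the length and GC trend was removed, 2 of the 12 were higher (median -0.19), where the median of 12317 genes was -0.01. Macrophages can express Stab1, Lyve1 and Vcam1, and without these 3 the members' median in Cdh5Cre against floxed was 0.49. Adventitial fibroblast markers (Gsn, Dcn) were higher in 11 of 12 (median 0.51), 3 of them by 2-fold, with sums of 6070 FPKM in Cdh5Cre, 4044 in Sm22Cre and 4224 in floxed. Smooth muscle markers (Tagln, Myh11) summed to 8052, 7917 and 8056 FPKM, with 4 of 10 higher (median -0.05). Heart muscle markers, whose tissue brings capillaries and endocardium of its own, were led by Tnnt2 and Tnni3. They summed to 1585 FPKM in Cdh5Cre, 455 in Sm22Cre and 1011 in floxed. Of the 12, 11 were higher in Cdh5Cre (median 0.61) and 12 were lower in Sm22Cre (median -1.13) than in floxed. Trend removal gave Cdh5Cre medians of 0.52 for fibroblast, -0.10 for smooth muscle and 0.30 for heart muscle markers.

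Of the remaining lists, lymphoid markers (Cd3g, Cd79b) summed to 7.20 FPKM in Cdh5Cre, 4.11 in Sm22Cre and 2.73 in floxed. All 9 were higher in Cdh5Cre than in floxed, and all 9 were under 1 FPKM in floxed, where differences can hardly be read. Adipocyte markers (Cfd, Ucp1) were higher in 6 of 8 (493, 363 and 341 FPKM), mesothelial markers (Krt18, Upk3b) in 7 of 7 (54.1, 30.8 and 39.9) and Schwann cell markers (Pmp22, S100b) in 6 of 7 (204, 168 and 175), with the groups in the same order. Of all genes 51.7% were higher. After removal of the length and GC trend 3 of 8, 6 of 7 and 7 of 7 markers were higher. Their medians were then -0.09, 0.21 and 0.36, where that of 12317 genes was -0.01. None of these markers was listed at 0 in any group, and their part in the endothelial differences was not tested. The heart muscle sum was 1.57 times that of floxed in Cdh5Cre and 0.450 times in Sm22Cre, and the endothelial sum was 1.53 times and 1.12 times.

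**Figure D5:**
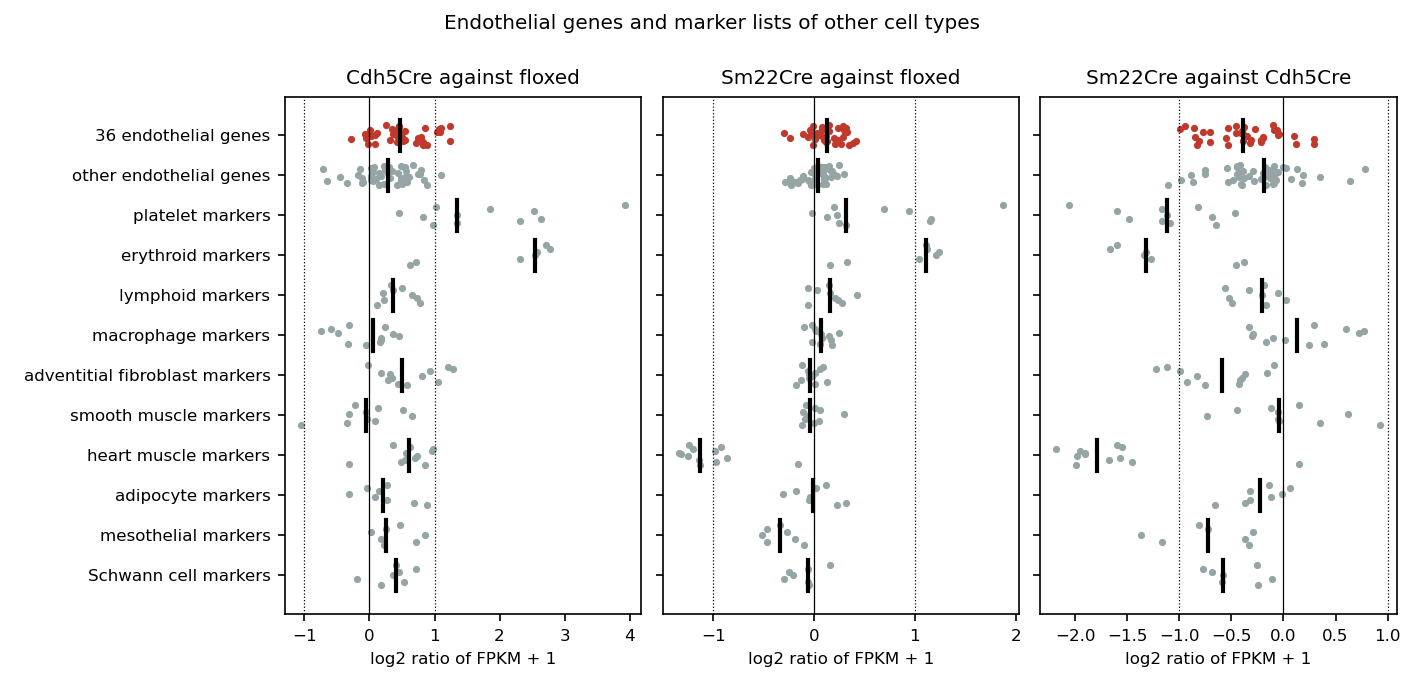
Log2 ratio of FPKM + 1 for each gene (points) and the median (black bar) of the endothelial genes and of marker lists of other cell types in the 3 comparisons, with dotted lines at 2-fold and a separate horizontal scale in each panel. In Cdh5Cre against floxed the erythroid, platelet, heart muscle and fibroblast medians, 2.54, 1.35, 0.61 and 0.51, lie beyond the endothelial median of 0.47. The smooth muscle median lies at -0.05. Without the length and GC trend, not drawn here, these medians are 2.08, 1.21, 0.30 and 0.52, against 0.48 for the endothelial genes.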

How the data were processed

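Per the labels' protocols, poly-A RNA from frozen aorta was made into stranded libraries and sequenced with paired ends. The submitters' processing notes name Cufflinks 1.3.0, TopHat2 2.0.8, SAMtools 0.1.7, Bowtie2 2.1.0 and, as genome build, mm9. They name no annotation. The deposited table gives FPKM, computed by the authors per group and listed for 3 pairs of groups with a status. Groups were read from the sample titles. Values of the Cdh5Cre and Sm22Cre groups were read from their pairs with floxed. For 15 genes, none of them a member, the value of at least 1 of the 3 groups differed between its pairs.

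Symbols came from GENCODE M21 for 32638 of 37668 genes. Differences are those of log2(FPKM + 1), a scale on which low genes appear to differ less, and folds are plain ratios of FPKM. A gene was called at 2-fold on the log2 scale. The background was the 14227 genes that reached 1 FPKM in any group, after removal of 7 genes with status HIDATA, and counts of members cover all 36. Status FAIL was kept. It was listed for 9 members in Cdh5Cre against floxed: Pecam1, Egfl7, Robo4, Tek, Eng, S1pr1, Rasip1, Erg and Selp. Of all genes analysed 27.7% had it in that pair. In Sm22Cre against floxed it was listed for 6: Pecam1, Tek, Eng, S1pr1, Erg and Selp. There 23.8% of all genes analysed had it. Of the 36 members, 9 share their listed locus with another gene, against 42.8% of all genes analysed. The 9 are Pecam1, Plvap, Ecscr, Egfl7, Ptprb, Eng, Rasip1, Selp and Stab1. Whether strand was used to assign fragments is not stated. Starts in the loci were taken as counted from 0, since the listed span equalled the GENCODE gene length in 13791 genes, against 336 otherwise. GENCODE is on another build and gave no positions. The trend was a quadratic surface in log2 length and GC content of the longest protein-coding transcript, fitted by least squares with numpy 2.4.6 and tested on simulated data.

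Members and lists were chosen with earlier results of these data known. The naming rule gave every member its group values, and in full those with a 2-fold difference and the first 3 of each role. It also named Nos3, further endothelial genes at 2-fold in Cdh5Cre against floxed, and the 2 most abundant genes of each other list. Eng, Stab1, Tie1, Tek, Ptprb, Klf2, Calcrl, Ramp2 and Angpt2, among others, were described after their values were seen. Alternatives were other pseudocounts, filters, scalings, trend removal, status and locus restrictions.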

Additional observations from a re-analysis of the deposited data

How the results depend on the processing

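No paired analysis was possible because the table gives 1 value per group, and leaving out replicates was not run for the same reason. In Cdh5Cre against floxed, 6 members at 2-fold became 0 with each group scaled to the same FPKM sum, 2 with that sum taken without globin and mitochondrial genes, 1 with the length and GC trend removed, and 3 among the 27 members alone at their listed locus. The shares of all genes under these settings were 0.604%, 0.766%, 0.495% and 1.40%. The members' median of 0.47 became 0.20 and 0.28 under the 2 sum scalings, which moved the median of all genes to -0.23 and -0.16. The direction of the median held under all 13 other settings in each of the 3 comparisons. In Sm22Cre against floxed the median stayed between 0.10 and 0.16. In Sm22Cre against Cdh5Cre, the 0 members lower by 2-fold became 1 with a pseudocount of 0.1 FPKM, with a plain ratio and with the trend removed. The 4 members higher in Sm22Cre became 12 and 9 under the sum scalings, 2 with the trend removed and 2 without Stab1, Lyve1 and Vcam1. The median of -0.38 became -0.12 and -0.19 under the sum scalings, which moved the median of all genes to 0.23 and 0.16. The settings that left out members also known from platelets or macrophages were chosen after seeing the data. Depth is unknown, so values under 1 FPKM, those of Aplnr and, in Sm22Cre and floxed, Robo4, can hardly be read. Such values in floxed include all 9 lymphoid and 5 of 11 platelet markers.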
